A study of Mus musculus with 12 samples.

Results

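The genes described here are 43 genes of DNA replication and mitosis, chosen by name. The rule itself uses no measured value, but the list was chosen with earlier results of these data known. It thus gives no independent support. In differentiated fat cells given an shRNA against TBLR1 most of those measured were higher. Probe sets annotated to 1 symbol of the list were taken, which gave 40 measured genes among 15267 tested. Of these, 25 belong to replication (helicase loading, the replication fork, nucleotide supply, chromatin assembly and entry into S phase) and 15 to mitosis. Pcna and Chaf1a of the replication genes and Ccnb1 of the mitosis genes were not analysed here, and each measured gene had a single probe set.

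The cells were 3T3-L1 adipocytes, made by hormonal differentiation of a clonal mouse fibroblast line. On day 9 of differentiation they received adenovirus carrying an shRNA against TBLR1 or a control shRNA, at a multiplicity of infection of 500, and 3 days later they were held for 2 h in Krebs-Ringer buffer and then given 10 µM isoproterenol for 3 h or left without it. There were 4 groups of 3 arrays: TBLR1 shRNA with isoproterenol, TBLR1 shRNA without it, control shRNA with isoproterenol and control shRNA without it. All 4 groups thus shared the viral transduction and the differentiation. TBLR1, the product of Tbl1xr1, is a subunit of NCoR and SMRT corepressor complexes, and isoproterenol activates β-adrenergic receptors and so the cAMP pathway that releases stored lipid. Whether the 3 replicates of a group came from separate cultures is not in the labels, and the p-values reflect only the spread between these samples, part or all of which may be technical.

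Before a cell copies its DNA, the origin recognition complex, Cdc6 and Cdt1 load the ring of MCM proteins on chromatin, and Cdc45 and the GINS complex turn that ring into the active helicase. Transcription of these genes is driven by E2F factors once cyclin D and cyclin E kinases have inactivated the Rb family. Genes of mitosis are switched on later, largely through a promoter element called the CHR, where the MuvB proteins work with B-Myb and FoxM1 in dividing cells and form the repressive DREAM complex with Rb family proteins in resting ones. Preadipocytes divide after the hormonal cocktail, in what is known as mitotic clonal expansion, and then leave the cell cycle as they fill with lipid.

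Values are log2 levels per array as deposited, and differences are log2 differences ± SE, with 3 arrays per group. The SE is the moderated one of a joint limma fit of all 12 arrays, so the spread in all 4 groups enters it. Adjusted p-values come from limma after Benjamini-Hochberg adjustment over all 15267 genes, with an adjusted p under 0.05 taken as a call. The target gene read 6.48, 6.41 and 6.37 with TBLR1 shRNA and isoproterenol, against 7.23, 7.34 and 7.29 with control shRNA and isoproterenol, and 6.45, 6.47 and 6.43 with TBLR1 shRNA alone, against 7.20, 7.27 and 7.26 with control shRNA alone. The target signal was thus 55.1% of control with isoproterenol and 57.8% without it, and only RNA was measured here. The labels name no second shRNA against TBLR1, and effects of the shRNA other than on TBLR1 were not tested. Arrays of a group correlated at 0.998 to 0.999 across genes and arrays of different groups at 0.977 to 0.997. Adipocyte markers were present but lower with TBLR1 shRNA: 8 of 10 fell and none rose in either treatment, and their mean level per array was 11.17 to 11.23 with TBLR1 shRNA and isoproterenol, against 11.72 to 11.79 with control shRNA and isoproterenol. Without isoproterenol the mean was 11.18 to 11.24 with TBLR1 shRNA, against 11.73 to 11.75 with control shRNA. Of 11 preadipocyte markers 5 rose and 4 fell with isoproterenol, and 4 rose and 4 fell without it, from Col1a1 (-0.94 ± 0.06 with isoproterenol and -0.81 ± 0.06 without it) to Thy1 (0.87 ± 0.05 and 0.86 ± 0.05). Of 9 macrophage markers Cd14 rose and Csf1r fell in both treatments, and of 6 endothelial markers Tek alone passed, with isoproterenol only. Of all genes tested 41.7% were called with isoproterenol, 19.5% higher and 22.3% lower. Without it 37.7% were called, 17.7% higher and 20.0% lower. The macrophage share, 22.2% called in each treatment, was below that background. The 3′ over 5′ log2 ratio of the actin control probe sets, which grows as RNA degrades, was 0.992 to 1.049 with TBLR1 shRNA and isoproterenol, against 0.982 to 1.045 with control shRNA and isoproterenol, and 0.877 to 0.912 with TBLR1 shRNA alone, against 0.928 to 0.957 with control shRNA alone. The part of these markers and of RNA quality in the results was not tested. In RNA from whole cultures a larger share of cycling cells and more RNA of these genes per cell cannot be told apart.

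TBLR1 shRNA was accompanied by higher levels of most replication and mitosis genes in both treatments. With isoproterenol 27 of the 40 genes rose and 2 fell, where 41.7% of all genes tested were called, 19.5% higher and 22.3% lower. Without it 27 also rose and 2 fell, against a background of 37.7% called, 17.7% higher and 20.0% lower. The median difference of the 40 genes was 0.25 with isoproterenol and 0.22 without it, while the median of all genes tested was -0.01 in both. The changes were mostly small: the helicase gene Mcm6 had the largest rise in each treatment, 1.98-fold with isoproterenol and 1.96-fold without it. Arrays of the TBLR1 groups lay wholly above those of the control groups for 26 genes with isoproterenol, against a background of 22.9%, and for 28 genes without it, against a background of 21.3%.

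The same 24 genes rose in both treatments, where 14.4% of all genes tested did. These comparisons share no arrays, but both use the spread estimate of the joint fit, so their calls are not independent. The 24 genes were 15 replication and 9 mitosis genes. Rfc4, a subunit of the clamp loader, and Cenpu, a component of the inner kinetochore, fell in both. The fall of Cenpu without isoproterenol was near the threshold (-0.21 ± 0.08, adjusted p = 0.0447), and its call ended when any of 9 arrays was left out. Aurka, Cdc20 and Mcm7 were called higher with isoproterenol only and E2f8, Gins1 and Tyms without it only; of these, only the difference between treatments of Mcm7 passed its own test. Ccnb2, Ccne2, Cdc45, Cenpe, E2f1, Mki67, Prim1 and Tk1 passed in neither, with differences from -0.03 to 0.15 with isoproterenol and from -0.15 to 0.17 without it. Mki67, whose protein Ki-67 is the usual stain for cycling cells, differed by 0.15 ± 0.07 with isoproterenol and 0.11 ± 0.07 without it. E2f1, an activator of replication genes, differed by -0.02 ± 0.04 with isoproterenol and -0.01 ± 0.04 without it. Mki67 was called with isoproterenol when TBLR1 replicate 2 of those arrays was left out (0.24, adjusted p = 0.00413), and in both treatments after centring on the hybridisation controls (0.26, adjusted p = 0.00192 with isoproterenol, and 0.18, adjusted p = 0.0372 without it). That centring moved the median of all genes tested to 0.10 with isoproterenol and 0.06 without it. It also added calls for Cdc45, Gins1, E2f8 and Ccne2 with isoproterenol and for Tk1, Ccnb2 and Cdc20 without it.

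**Figure D1:**
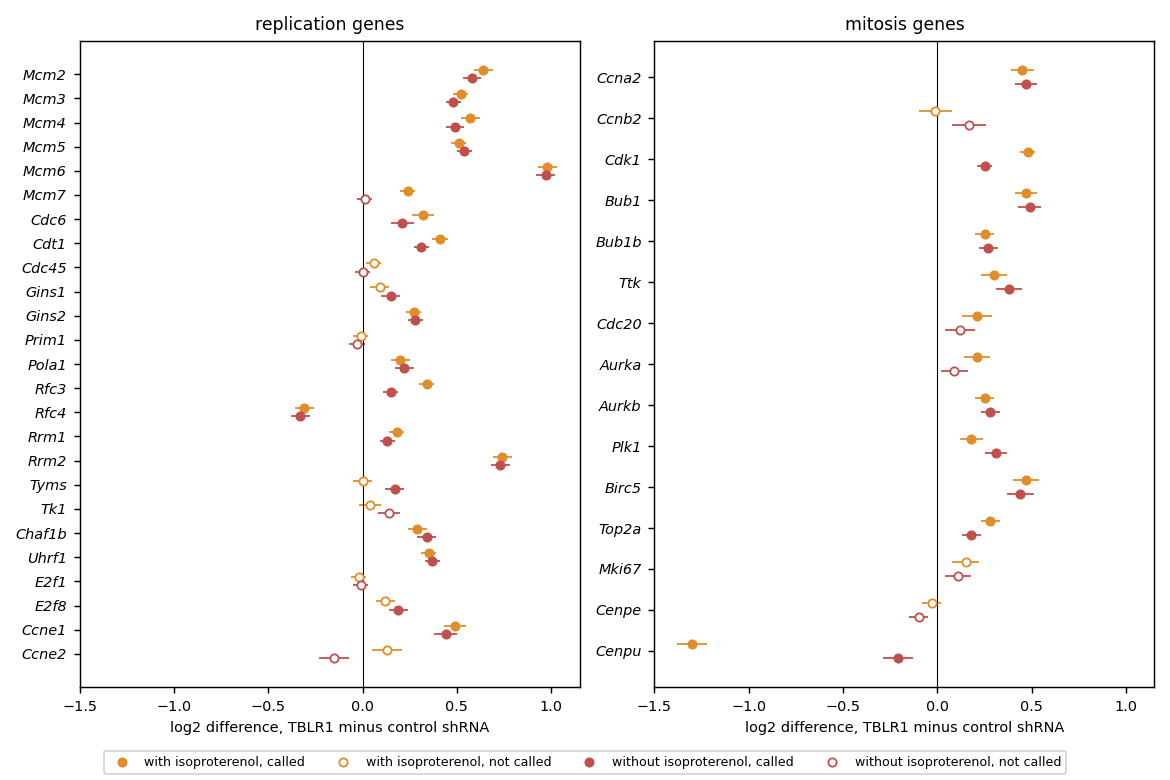
Log2 difference of TBLR1 against control shRNA for the 25 replication genes (left) and 15 mitosis genes (right), with isoproterenol (orange) and without it (red); bars are SE, n = 3 arrays per group, and filled points passed an adjusted p of 0.05. Most points lie to the right of 0 in both panels, and Rfc4 and Cenpu lie to the left.

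Replication and mitosis genes did not separate by count. With isoproterenol 16 of 25 replication genes rose (64.0%, median 0.27) and 11 of 15 mitosis genes rose (73.3%, median 0.25). Without it 18 of 25 replication genes rose (72.0%, median 0.21) and 9 of 15 mitosis genes rose (60.0%, median 0.25). In each class 1 gene fell in each treatment. The difference between the classes was not tested. Among the members the rises of over 0.5 were all in replication genes. With isoproterenol they were Mcm2, Mcm3, Mcm4, Mcm5, Mcm6 and Rrm2, and the largest rise of a mitosis member was that of Cdk1 (0.48). Without isoproterenol they were Mcm2, Mcm5, Mcm6 and Rrm2, and the largest of a mitosis member was that of Bub1 (0.49). This depends on which mitosis genes are members. Among 50 other mitosis genes Melk rose by 2.26 with isoproterenol and 2.15 without it, more than any replication member.

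Array means of the classes also varied within groups. Relative to the untreated control arrays, the mean of the replication genes was 0.289, 0.219 and 0.267 on the TBLR1 arrays with isoproterenol, against -0.056, -0.020 and -0.007 on the control arrays with isoproterenol. Without isoproterenol the replication mean was 0.244, 0.275 and 0.244 with TBLR1 shRNA, against -0.007, 0.017 and -0.010 with control shRNA. The mean of the mitosis genes was 0.313, 0.112 and 0.225 on the TBLR1 arrays with isoproterenol, against 0.032, 0.086 and 0.064 on the control arrays with isoproterenol. On untreated arrays it was 0.174, 0.300 and 0.177 with TBLR1 shRNA, against -0.024, -0.010 and 0.034 with control shRNA. In both classes and both treatments the TBLR1 arrays lay above the control arrays. The mitosis mean of the treated control arrays includes a higher Cenpu. The spread between arrays was not tested for a difference between classes.

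In the TBLR1 group with isoproterenol, 12 of 15 mitosis genes were highest on replicate 1 and 12 were lowest on replicate 2, where 34.4% of all genes tested were highest on replicate 1 and 35.1% lowest on replicate 2. In the untreated TBLR1 group 13 of 15 were highest on replicate 2, the highest array for 32.7% of all genes. Among replication genes these counts were 14 and 14 of 25 with isoproterenol and 16 of 25 without it. Control arrays had such orders too: with isoproterenol 17 of 25 replication genes were lowest on replicate 1, where 35.3% of all genes were, and without it 10 of 15 mitosis genes were highest on replicate 3, where 35.9% of all genes were. Other control counts were more even. Mitosis genes with isoproterenol were highest on replicates 1, 2 and 3 in 5, 6 and 4 cases and lowest in 7, 4 and 4. Replication genes without it were highest in 8, 11 and 6 cases and lowest in 12, 7 and 6. Some TBLR1 counts were about as even: without isoproterenol replication genes were lowest on replicates 1, 2 and 3 in 11, 6 and 8 cases. On control arrays with isoproterenol replication genes were highest in 4, 9 and 12 cases. Part of the order between replicates was thus shared in groups of either shRNA, and not in every class and treatment. The largest of these counts for replication genes, 17 of 25, was in a control group. This description was chosen after the values were seen and not tested. Without TBLR1 replicate 1 of the isoproterenol arrays, 9 mitosis genes were called in place of 12.

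**Figure D2:**
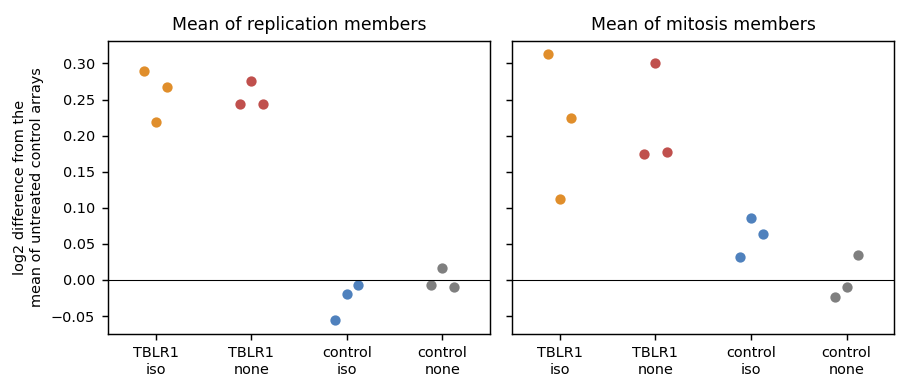
Mean over the 25 replication genes (left) and the 15 mitosis genes (right) on each of the 12 arrays, as the log2 difference from the mean of the untreated control arrays; each point is 1 array, iso stands for isoproterenol and none for no treatment. The TBLR1 arrays lie at 0.219 to 0.289 for replication genes and at 0.112 to 0.313 for mitosis genes, above all control arrays.

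The promoters of the 2 classes differed in the shares that carried 3 short motifs. Windows of 250 bases before to 50 after the annotated start were taken from RefSeq (GRCm38.p6) and matched 34 of the 40 genes, all but Mcm4, Gins1, Gins2, Ccne2, Ccna2 and Aurkb. An E2F site (TTTCGCGC, TTTGGCGC, TTTCCCGC or TTTGCCGC, either strand) lay in the windows of 9 of 21 replication genes (42.9%) and 1 of 13 mitosis genes (7.69%), against 3.89% of 12273 genes tested with a window. A CHR (TTTGAA or TTCGAA, either strand) lay in 5 of 21 replication genes (23.8%) and 10 of 13 mitosis genes (76.9%), against 17.3% of all genes. A CCAAT box (CCAAT, either strand), which binds the factor NF-Y, lay in 13 of 21 replication genes (61.9%) and 12 of 13 mitosis genes (92.3%), against 42.2% of all genes. Over 15474 windows the CHR and CCAAT letters shared bases in 18, and the E2F and CCAAT letters in 3. The 3 mitosis genes without a CHR were Birc5, Cenpe and Cenpu.

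The windows of 5 genes are printed 5′ to 3′ on the gene's strand, since they stand for the main patterns: Mcm6 for the strongest rise, Rfc4 for a replication gene that fell, Bub1 for the mitosis genes, Cdk1 as the mitosis gene with an E2F site, and Cenpu for the response to isoproterenol. Capitals mark the motif letters, on either strand. They are at chr1:128359656-128359955 (Mcm6, minus strand), chr16:23127681-23127980 (Rfc4, minus), chr2:127831810-127832109 (Bub1, minus), chr10:69352863-69353162 (Cdk1, minus) and chr8:46551819-46552118 (Cenpu, plus) of GRCm38.p6.
Mcm6: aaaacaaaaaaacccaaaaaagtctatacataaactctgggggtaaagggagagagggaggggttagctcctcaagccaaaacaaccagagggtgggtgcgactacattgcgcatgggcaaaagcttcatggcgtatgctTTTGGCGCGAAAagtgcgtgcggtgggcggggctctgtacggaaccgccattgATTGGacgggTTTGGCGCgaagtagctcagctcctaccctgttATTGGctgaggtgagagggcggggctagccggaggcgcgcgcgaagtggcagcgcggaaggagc
Rfc4: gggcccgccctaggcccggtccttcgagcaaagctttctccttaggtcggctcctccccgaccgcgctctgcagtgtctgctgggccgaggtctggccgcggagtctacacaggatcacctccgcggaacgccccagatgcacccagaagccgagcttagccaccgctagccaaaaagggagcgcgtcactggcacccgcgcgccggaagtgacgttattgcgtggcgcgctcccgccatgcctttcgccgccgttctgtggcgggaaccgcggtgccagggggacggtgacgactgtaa
Bub1: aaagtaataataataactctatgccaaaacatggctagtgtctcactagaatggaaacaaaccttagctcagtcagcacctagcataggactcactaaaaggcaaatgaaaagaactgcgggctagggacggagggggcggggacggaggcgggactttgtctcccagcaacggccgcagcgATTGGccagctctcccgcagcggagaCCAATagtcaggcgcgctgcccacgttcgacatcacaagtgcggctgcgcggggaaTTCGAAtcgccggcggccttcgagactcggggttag
Cdk1: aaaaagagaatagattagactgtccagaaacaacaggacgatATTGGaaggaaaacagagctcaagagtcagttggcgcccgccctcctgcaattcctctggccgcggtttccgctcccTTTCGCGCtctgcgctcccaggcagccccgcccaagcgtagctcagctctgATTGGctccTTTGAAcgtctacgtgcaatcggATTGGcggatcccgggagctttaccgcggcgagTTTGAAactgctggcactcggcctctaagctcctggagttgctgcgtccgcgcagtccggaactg
Cenpu: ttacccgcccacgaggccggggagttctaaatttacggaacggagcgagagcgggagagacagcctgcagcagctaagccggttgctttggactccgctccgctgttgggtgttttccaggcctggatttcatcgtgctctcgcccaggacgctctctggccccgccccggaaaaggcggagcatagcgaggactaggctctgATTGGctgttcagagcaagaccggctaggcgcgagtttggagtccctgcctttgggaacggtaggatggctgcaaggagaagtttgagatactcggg

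Counted from the 5′ end, the Mcm6 window holds E2F letters from bases 141, 145 and 204, the first 2 overlapping, and CCAAT boxes from bases 194 and 237. Bub1 holds a CHR from base 265 and CCAAT boxes from bases 183 and 209, with no E2F site by these letters. Cdk1 holds an E2F site from base 120, CHR letters from bases 180 and 236 and CCAAT boxes from bases 43, 171 and 203. Cenpu holds a CCAAT box from base 204, and the window of Rfc4 holds none of the 3 motifs. Among replication genes with a window, an E2F site was found in 8 of the 15 that rose without isoproterenol and 1 of the 6 that did not. A CHR was found in 6 of the 7 mitosis genes that rose without isoproterenol and 4 of the 6 that did not. Other splits ran the opposite way. In replication genes a CHR was found in 3 of the 15 that rose and 2 of the 6 that did not. In mitosis genes a CCAAT box was found in 6 of the 7 that rose and 6 of the 6 that did not. In replication genes a CCAAT box was found in 10 of 15 and 3 of 6, and in mitosis genes an E2F site in 1 of 7 and 0 of 6. None of these splits was tested. These matches describe letters in a window and do not show that a factor bound there. Nor does the lack of these exact letters show that a factor did not bind.

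Of the genes that license origins, all 8 rose with isoproterenol (0.24 to 0.98, median 0.51) and 7 of 8 rose without it (0.01 to 0.97 over the 8, median 0.48). For this and the following role groups the background is 19.5% of all genes tested called higher with isoproterenol and 17.7% without it. Mcm6, a subunit of the helicase ring, read 9.01, 8.88 and 8.96 on the TBLR1 arrays with isoproterenol, against 7.90, 8.0 and 8.0 on the control arrays with isoproterenol. Without isoproterenol Mcm6 read 8.83, 8.96 and 8.93 with TBLR1 shRNA, against 8.03, 7.89 and 7.90 with control shRNA. The 6 TBLR1 arrays lay far above the 6 control arrays, and isoproterenol left no gap within either shRNA. Mcm6 differed by 0.98 ± 0.05 with isoproterenol (adjusted p = 4.58e-10) and by 0.97 ± 0.05 without it (adjusted p = 8.05e-10). Mcm5, another subunit of the ring, read 7.93, 7.88 and 7.96 with TBLR1 shRNA and isoproterenol, against 7.34, 7.44 and 7.48 with control shRNA and isoproterenol. Untreated arrays of Mcm5 read 7.90, 7.89 and 7.84 with TBLR1 shRNA, against 7.31, 7.37 and 7.34 with control shRNA. Here too the groups were apart in both treatments, by 0.51 ± 0.04 with isoproterenol (adjusted p = 9.35e-08) and 0.54 ± 0.04 without it (adjusted p = 6.93e-08).

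The other ring subunits Mcm2, Mcm3 and Mcm4 rose by 0.64 ± 0.05, 0.52 ± 0.04 and 0.57 ± 0.05 with isoproterenol and by 0.58 ± 0.05, 0.48 ± 0.04 and 0.49 ± 0.05 without it. Mcm7 stood apart from its partners: it rose with isoproterenol (0.24 ± 0.04, adjusted p = 0.000102) and was 0.01 ± 0.04 without it (adjusted p = 0.885). The loading factor gene Cdt1 rose by 0.41 ± 0.04 with isoproterenol and 0.31 ± 0.04 without it. Cdc6, which acts with Cdt1, rose by 0.32 ± 0.06 with isoproterenol and by 0.21 ± 0.06 without it. The call of Cdc6 without isoproterenol ended when control replicate 1 (0.15, adjusted p = 0.104) or TBLR1 replicate 2 (0.19, adjusted p = 0.0643) of the untreated arrays was left out.

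**Figure D3:**
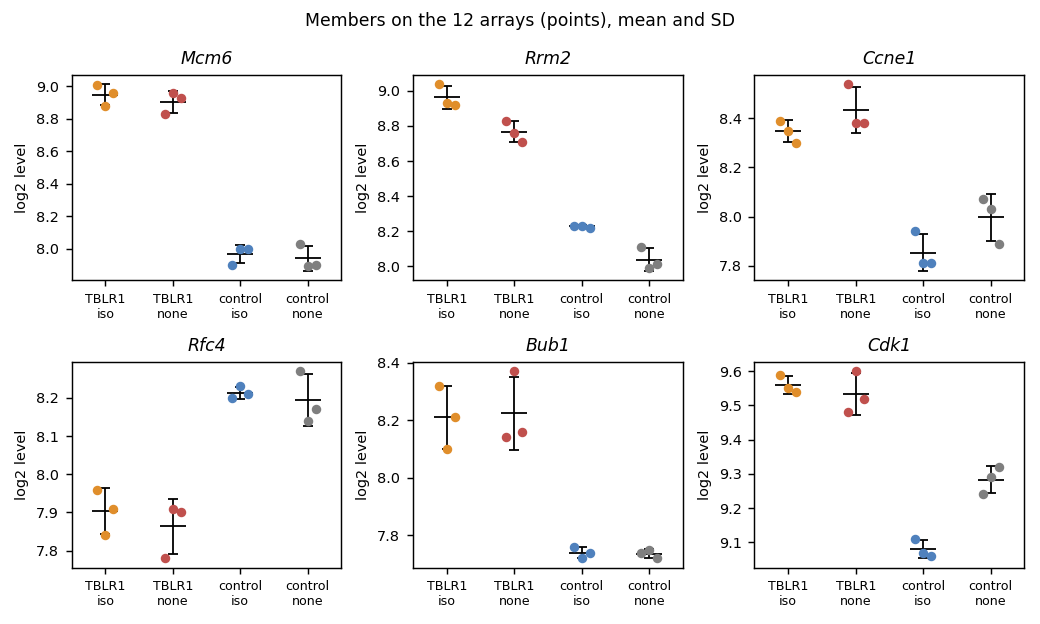
Log2 level of Mcm6, Rrm2, Ccne1, Rfc4, Bub1 and Cdk1 on the 12 arrays, with the mean and SD of each group of 3; iso stands for isoproterenol and none for no treatment, and each panel has its own scale. The TBLR1 arrays lie above the control arrays in every panel but that of Rfc4, where they lie below, and Cdk1 is lower with isoproterenol on the control arrays.

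Genes of the replication fork were mixed, with 3 of 7 higher and 1 lower with isoproterenol and 4 higher and 1 lower without it. The shares higher were 42.9% and 57.1%, where 19.5% and 17.7% of all genes tested were. Gins2, a subunit of the GINS complex, read 7.93, 7.88 and 7.97 with TBLR1 shRNA and isoproterenol, against 7.66, 7.64 and 7.68 with control shRNA and isoproterenol. Without isoproterenol Gins2 read 7.95, 8.0 and 7.91 with TBLR1 shRNA, against 7.68, 7.66 and 7.70 with control shRNA. The groups did not overlap, with rises of 0.27 ± 0.04 with isoproterenol (adjusted p = 2.45e-05) and 0.28 ± 0.04 without it (adjusted p = 2.4e-05). Rfc4 went the other way and read 7.96, 7.84 and 7.91 with TBLR1 shRNA and isoproterenol, against 8.20, 8.23 and 8.21 with control shRNA and isoproterenol. Untreated arrays of Rfc4 read 7.78, 7.91 and 7.90 with TBLR1 shRNA, against 8.27, 8.14 and 8.17 with control shRNA. All 6 TBLR1 arrays were below all 6 control arrays, with differences of -0.31 ± 0.05 with isoproterenol (adjusted p = 5.48e-05) and -0.33 ± 0.05 without it (adjusted p = 3.37e-05). Rfc3, a second subunit of the same clamp loader, rose in both, and its arrays are given with the isoproterenol comparisons.

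Pola1, the catalytic subunit of the polymerase that starts each strand, rose by 0.20 ± 0.05 with isoproterenol and 0.22 ± 0.05 without it. Its partner Prim1, a primase subunit, was at -0.01 ± 0.04 and -0.03 ± 0.04 and passed in neither. Cdc45 also passed in neither, and with isoproterenol was called after centring on the hybridisation controls (0.17, adjusted p = 0.0313). Gins1 rose without isoproterenol (0.15 ± 0.05, adjusted p = 0.0182) and was 0.09 ± 0.05 with it (adjusted p = 0.143). With isoproterenol Gins1 was called after that centring (0.20, adjusted p = 0.00995). The untreated call of Gins1 ended without control replicate 1 (adjusted p = 0.0518), control replicate 3 (0.0620) or TBLR1 replicate 2 (0.0948) of the untreated arrays.

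Genes of nucleotide supply were led by Rrm2, the regulated small subunit of ribonucleotide reductase. Rrm2 read 9.04, 8.93 and 8.92 with TBLR1 shRNA and isoproterenol, against 8.23, 8.23 and 8.22 with control shRNA and isoproterenol. Without isoproterenol Rrm2 read 8.83, 8.76 and 8.71 with TBLR1 shRNA, against 8.11, 7.99 and 8.01 with control shRNA. No TBLR1 array came near a control array, and the differences were 0.74 ± 0.05 with isoproterenol (adjusted p = 2.8e-09) and 0.73 ± 0.05 without it (adjusted p = 5.42e-09). The large subunit gene Rrm1 moved less and read 8.30, 8.24 and 8.30 with TBLR1 shRNA and isoproterenol, against 8.08, 8.10 and 8.10 with control shRNA and isoproterenol. Untreated arrays of Rrm1 read 8.16, 8.23 and 8.21 with TBLR1 shRNA, against 8.05, 8.06 and 8.09 with control shRNA. The groups were apart by 0.18 ± 0.04 with isoproterenol (adjusted p = 0.000636) and 0.13 ± 0.04 without it (adjusted p = 0.00829). Tyms, the thymidylate synthase gene, rose without isoproterenol by 0.17 ± 0.05 (adjusted p = 0.0113), a call that ended without control replicate 2 (adjusted p = 0.0519) or TBLR1 replicate 3 (0.0513) of the untreated arrays. Tk1, the salvage enzyme thymidine kinase, passed in neither (0.04 ± 0.06 with isoproterenol and 0.14 ± 0.06 without it), and without it was called when TBLR1 replicate 2 (adjusted p = 0.0498) or 3 (0.0278) of the isoproterenol arrays was left out of the shared fit, when the compared arrays alone were fitted (adjusted p = 0.0254) and after centring on the hybridisation controls (0.21, adjusted p = 0.0161).

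Both measured genes of chromatin assembly behind the fork rose. Uhrf1, which guides maintenance methylation to new DNA, read 7.91, 7.92 and 7.99 with TBLR1 shRNA and isoproterenol, against 7.56, 7.62 and 7.57 with control shRNA and isoproterenol. Without isoproterenol Uhrf1 read 7.88, 7.98 and 7.89 with TBLR1 shRNA, against 7.46, 7.56 and 7.59 with control shRNA. Every TBLR1 array was above every control array, by 0.35 ± 0.04 with isoproterenol (adjusted p = 7.32e-06) and 0.37 ± 0.04 without it (adjusted p = 5.08e-06). Chaf1b, a subunit of the histone chaperone CAF-1, read 7.38, 7.38 and 7.35 with TBLR1 shRNA and isoproterenol, against 7.08, 7.09 and 7.07 with control shRNA and isoproterenol. Untreated arrays of Chaf1b read 7.28, 7.32 and 7.15 with TBLR1 shRNA, against 6.81, 7.0 and 6.92 with control shRNA. The pairs of groups did not overlap, and Chaf1b differed by 0.29 ± 0.05 with isoproterenol (adjusted p = 0.0002) and 0.34 ± 0.05 without it (adjusted p = 5.38e-05).

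Among the regulators of entry into S phase, 1 of 4 rose with isoproterenol (25.0%) and 2 of 4 without it (50.0%). Of all genes tested 19.5% and 17.7% were called higher, so the count with isoproterenol is close to the background. Ccne1, which encodes cyclin E1, read 8.39, 8.35 and 8.30 with TBLR1 shRNA and isoproterenol, against 7.94, 7.81 and 7.81 with control shRNA and isoproterenol. Without isoproterenol Ccne1 read 8.54, 8.38 and 8.38 with TBLR1 shRNA, against 8.07, 8.03 and 7.89 with control shRNA. The groups were clear of each other in both treatments, by 0.49 ± 0.06 with isoproterenol (adjusted p = 2.94e-06) and 0.44 ± 0.06 without it (adjusted p = 1.28e-05). Ccne2, which encodes cyclin E2, passed in neither (0.13 ± 0.08 with isoproterenol and -0.15 ± 0.08 without it). With isoproterenol Ccne2 was called higher after centring on the hybridisation controls (0.24, adjusted p = 0.00597). E2f8, an E2F family member that represses E2F targets, read 6.41, 6.44 and 6.44 with TBLR1 shRNA and isoproterenol, against 6.30, 6.33 and 6.31 with control shRNA and isoproterenol. Untreated arrays of E2f8 read 6.44, 6.59 and 6.46 with TBLR1 shRNA, against 6.17, 6.39 and 6.37 with control shRNA. The TBLR1 arrays were higher without overlap in both treatments, yet only the untreated difference was called (0.19 ± 0.05, adjusted p = 0.0117), and with isoproterenol it was 0.12 ± 0.05 (adjusted p = 0.103). The untreated call of E2f8 ended without control replicate 1 (0.12, adjusted p = 0.0732) or TBLR1 replicate 2 (0.14, adjusted p = 0.0720) of the untreated arrays, while E2f8 with isoproterenol was called without control replicate 1 of the untreated arrays (0.12, adjusted p = 0.0426), when the compared arrays alone were fitted (0.12, adjusted p = 0.0307) and after centring on the hybridisation controls (0.23, adjusted p = 0.00453).

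Genes of the cyclin and kinase pair that drives mitosis came next. Ccna2, which encodes cyclin A and acts in S phase as well as in mitosis, read 8.48, 8.25 and 8.30 with TBLR1 shRNA and isoproterenol, against 7.84, 7.95 and 7.88 with control shRNA and isoproterenol. Without isoproterenol Ccna2 read 8.27, 8.41 and 8.30 with TBLR1 shRNA, against 7.81, 7.90 and 7.86 with control shRNA. The arrays did not overlap, with rises of 0.45 ± 0.06 with isoproterenol (adjusted p = 6.68e-06) and 0.47 ± 0.06 without it (adjusted p = 5.22e-06). Cdk1, the kinase itself, read 9.59, 9.55 and 9.54 with TBLR1 shRNA and isoproterenol, against 9.11, 9.07 and 9.06 with control shRNA and isoproterenol. Untreated arrays of Cdk1 read 9.48, 9.60 and 9.52 with TBLR1 shRNA, against 9.24, 9.29 and 9.32 with control shRNA. Cdk1 rose by 0.48 ± 0.04 with isoproterenol (adjusted p = 9.72e-08) and 0.25 ± 0.04 without it (adjusted p = 0.000133). The difference between these effects was 0.23 ± 0.06 and only just called (adjusted p = 0.0495). That call ended when any of 11 arrays was left out. Ccnb2, a cyclin B gene, passed in neither (-0.01 ± 0.09 with isoproterenol and 0.17 ± 0.09 without it). Without isoproterenol Ccnb2 was called after centring on the hybridisation controls (0.24, adjusted p = 0.0145).

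Genes of the spindle checkpoint, which holds cells until every chromosome is attached, rose in 4 of 4 cases with isoproterenol and 3 of 4 without it. Bub1, a checkpoint kinase, read 8.32, 8.10 and 8.21 with TBLR1 shRNA and isoproterenol, against 7.76, 7.72 and 7.74 with control shRNA and isoproterenol. Without isoproterenol Bub1 read 8.14, 8.37 and 8.16 with TBLR1 shRNA, against 7.74, 7.75 and 7.72 with control shRNA. The control arrays were tightly placed and the TBLR1 arrays more spread and all higher, by 0.47 ± 0.06 with isoproterenol (adjusted p = 7.5e-06) and 0.49 ± 0.06 without it (adjusted p = 6.11e-06). Ttk, the checkpoint kinase also called Mps1, read 7.33, 6.99 and 7.17 with TBLR1 shRNA and isoproterenol, against 6.89, 6.79 and 6.91 with control shRNA and isoproterenol. Untreated arrays of Ttk read 7.23, 7.28 and 7.28 with TBLR1 shRNA, against 6.85, 6.94 and 6.86 with control shRNA. Replicate 2 of the treated TBLR1 arrays came close to the control arrays, and Ttk differed by 0.30 ± 0.07 with isoproterenol (adjusted p = 0.0014) and 0.38 ± 0.07 without it (adjusted p = 0.000167). Bub1b, which encodes BubR1, rose by 0.25 ± 0.05 with isoproterenol and 0.27 ± 0.05 without it.

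Cdc20, the activator of the anaphase-promoting complex, was called with isoproterenol (0.21 ± 0.08, adjusted p = 0.048) although its arrays overlapped, and read 8.91, 8.51 and 8.70 with TBLR1 shRNA, against 8.49, 8.47 and 8.54 with control shRNA. That call ended when any of 8 arrays was left out, at an adjusted p of 0.0512 to 0.270, the last without TBLR1 replicate 1 of the isoproterenol arrays (0.10). The arrays were control replicates 1 and 2 and TBLR1 replicate 1 without isoproterenol, and the 3 control replicates and TBLR1 replicates 1 and 3 with it. The call also ended when the compared arrays alone were fitted (adjusted p = 0.0662). Without isoproterenol Cdc20 was called after centring on the hybridisation controls (0.19, adjusted p = 0.0331).

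The mitotic kinases and their partners rose in 4 of 4 cases with isoproterenol and 3 of 4 without it. Birc5, which encodes survivin, a member of the chromosomal passenger complex, read 8.64, 8.35 and 8.52 with TBLR1 shRNA and isoproterenol, against 7.99, 8.09 and 8.03 with control shRNA and isoproterenol. Without isoproterenol Birc5 read 8.47, 8.69 and 8.47 with TBLR1 shRNA, against 8.09, 8.05 and 8.16 with control shRNA. The arrays were apart in both treatments, by 0.47 ± 0.07 with isoproterenol (adjusted p = 3.46e-05) and 0.44 ± 0.07 without it (adjusted p = 7.54e-05). Aurkb, the kinase of the same complex, read 6.88, 6.70 and 6.83 with TBLR1 shRNA and isoproterenol, against 6.56, 6.56 and 6.55 with control shRNA and isoproterenol. Untreated arrays of Aurkb read 6.78, 6.93 and 6.92 with TBLR1 shRNA, against 6.57, 6.61 and 6.61 with control shRNA. The TBLR1 arrays were again all above the control arrays, by 0.25 ± 0.05 with isoproterenol (adjusted p = 0.000605) and 0.28 ± 0.05 without it (adjusted p = 0.000254). Plk1, a kinase of mitotic entry and spindle assembly, rose by 0.18 ± 0.06 with isoproterenol (adjusted p = 0.0303) and 0.31 ± 0.06 without it (adjusted p = 0.00107). Aurka, the centrosomal Aurora kinase, rose with isoproterenol (0.21 ± 0.07, adjusted p = 0.0205) and was 0.09 ± 0.07 without it (adjusted p = 0.368).

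The calls of Aurka and Plk1 with isoproterenol depended on single arrays of those groups. Without TBLR1 replicate 1, where most mitosis genes were highest, Aurka was 0.14 (adjusted p = 0.115) and Plk1 0.09 (adjusted p = 0.180). Aurka also lost its call without TBLR1 replicate 3 (adjusted p = 0.0673), control replicate 1 (0.0839) or control replicate 2 (0.0505), and Plk1 without control replicate 2 (0.0679) or 3 (0.126) or when the compared arrays alone were fitted (0.0605).

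Chromosome and kinetochore genes were mixed, with 1 of 4 higher (25.0%) and 1 lower in each treatment. That is close to the background of 19.5% higher with isoproterenol and 17.7% without it. Top2a, the topoisomerase that untangles sister chromatids, read 8.59, 8.53 and 8.63 with TBLR1 shRNA and isoproterenol, against 8.20, 8.39 and 8.32 with control shRNA and isoproterenol. Without isoproterenol Top2a read 8.37, 8.53 and 8.42 with TBLR1 shRNA, against 8.23, 8.27 and 8.30 with control shRNA. The groups did not overlap but were close, with rises of 0.28 ± 0.05 with isoproterenol (adjusted p = 0.000362) and 0.18 ± 0.05 without it (adjusted p = 0.0144). The untreated call of Top2a ended without control replicate 1 (0.16, adjusted p = 0.0580) or TBLR1 replicate 2 (0.13, adjusted p = 0.0856). Cenpe, a kinetochore motor, passed in neither (-0.03 ± 0.05 with isoproterenol and -0.10 ± 0.05 without it).

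Cenpu had the largest change of any member, in the direction opposite to most. Cenpu read 7.37, 7.35 and 7.44 with TBLR1 shRNA and isoproterenol, against 8.51, 8.94 and 8.62 with control shRNA and isoproterenol. Without isoproterenol Cenpu read 7.29, 7.33 and 7.36 with TBLR1 shRNA, against 7.54, 7.48 and 7.58 with control shRNA. The treated control arrays stood alone, and the other 9 arrays lay close together, with the TBLR1 arrays slightly below the untreated control arrays. Cenpu thus fell by 1.30 ± 0.08 with isoproterenol (adjusted p = 1.48e-09), to 0.405 of the control signal, and by 0.21 ± 0.08 without it (adjusted p = 0.0447). The fall without isoproterenol lost its call when any of 9 arrays was left out (adjusted p = 0.05 to 0.128), namely the 6 untreated arrays and control replicate 3 and TBLR1 replicates 1 and 3 of the isoproterenol arrays. Centring on the hybridisation controls (-0.14, adjusted p = 0.160) and cyclic loess (-0.18, adjusted p = 0.0804) ended it as well.

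The wider cell cycle lists gave context, with the same background shares as above. Of 42 other replication genes 22 rose and 8 fell with isoproterenol (median 0.12), and 19 rose and 10 fell without it (median 0.10). The maintenance methyltransferase gene Dnmt1, the partner of Uhrf1, rose by 0.85 ± 0.04 with isoproterenol and 0.65 ± 0.04 without it, and Slbp, which binds histone mRNA in S phase, by 0.65 ± 0.05 and 0.60 ± 0.05. Recql4, a helicase gene of replication initiation, differed by -0.49 ± 0.05 with isoproterenol and -0.54 ± 0.05 without it. Of 50 other mitosis genes 28 rose and 7 fell with isoproterenol (median 0.16), and 25 rose and 3 fell without it (median 0.14). The kinase gene Melk was far above the rest, with rises of 2.26 ± 0.09 with isoproterenol and 2.15 ± 0.09 without it, and the abscission gene Cep55 and the spindle assembly gene Tpx2 rose by 0.75 ± 0.08 and 0.64 ± 0.04 with isoproterenol and 0.79 ± 0.08 and 0.63 ± 0.04 without it. On the arrays Melk read 9.62, 9.51 and 9.60 with TBLR1 shRNA and isoproterenol, against 7.29, 7.40 and 7.26 with control shRNA and isoproterenol, and 9.44, 9.67 and 9.68 with TBLR1 shRNA alone, against 7.69, 7.35 and 7.30 with control shRNA alone.

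Some genes that act before S phase changed as well. Of 8 genes of the G1 cyclins, their kinases and activators, 5 rose and none fell with isoproterenol (62.5% higher, median 0.31). Without it 6 rose and none fell (75.0% higher, median 0.30). Of all genes tested 19.5% were higher with isoproterenol and 17.7% without it. Myc, a transcription factor that promotes cell growth and division, rose by 1.29 ± 0.11 with isoproterenol (adjusted p = 8.63e-08) and 1.31 ± 0.11 without it (adjusted p = 1.02e-07). The cyclin D genes Ccnd3 and Ccnd1 rose by 0.81 ± 0.05 and 0.70 ± 0.05 with isoproterenol and by 0.86 ± 0.05 and 0.69 ± 0.05 without it. Of 6 genes of kinase inhibitors 1 rose and 2 fell in each treatment (50.0% called). Of all genes tested 41.7% were called with isoproterenol and 37.7% without it. Cdkn1a, which encodes the inhibitor p21, differed by -0.59 ± 0.06 with isoproterenol and -0.71 ± 0.06 without it, and Cdkn2c, which encodes p18, by -0.36 ± 0.04 and -0.31 ± 0.04. Cdkn2b, the gene of p15, rose by 0.50 ± 0.06 with isoproterenol and 0.22 ± 0.06 without it.

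Genes of the Rb, E2F and DREAM proteins went both ways, 4 of 15 higher and 3 lower with isoproterenol (median 0.01). Without it 5 were higher and 2 lower (median -0.07). The share called was 46.7% in each treatment, where 41.7% of all genes tested were called with isoproterenol and 37.7% without it. E2f7, a repressor like E2f8 and itself an E2F target, rose by 0.86 ± 0.06 with isoproterenol and 0.87 ± 0.06 without it. Rbl1, which encodes the Rb relative p107, rose by 0.45 ± 0.07 with isoproterenol and 0.58 ± 0.07 without it. Tfdp1, the DNA-binding partner of E2F proteins, rose by 0.28 ± 0.05 with isoproterenol and 0.43 ± 0.05 without it. Of 14 genes of the S phase checkpoint and repair 4 rose and 2 fell with isoproterenol (42.9% called), and 5 rose and 2 fell without it (50.0% called). Atm, the kinase activated by DNA breaks, rose by 1.04 ± 0.05 with isoproterenol and 0.94 ± 0.05 without it, and its downstream kinase Chek2 differed by -0.15 ± 0.06 and -0.28 ± 0.06. Chek1, the kinase activated by stalled forks, rose by 0.16 ± 0.05 with isoproterenol and 0.23 ± 0.05 without it.

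**Figure D4:**
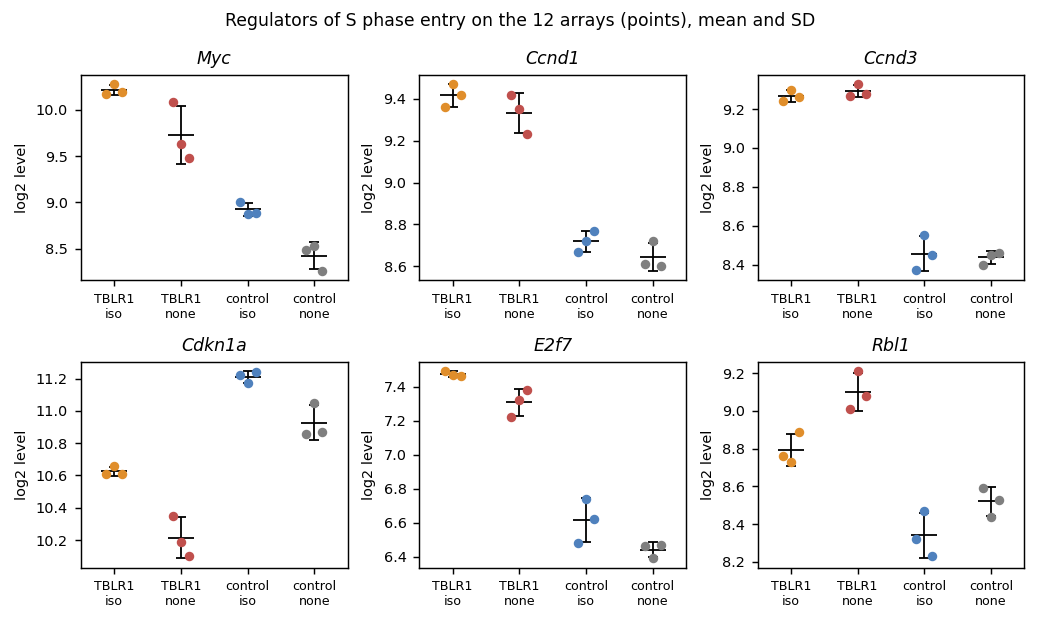
Log2 level of Myc, Ccnd1, Ccnd3, Cdkn1a, E2f7 and Rbl1 on the 12 arrays, with the mean and SD of each group of 3; iso stands for isoproterenol and none for no treatment, and each panel has its own scale. Myc lies at 9.48 to 10.28 on the TBLR1 arrays and at 8.26 to 9.01 on the control arrays, and Cdkn1a at 10.10 to 10.66 on the TBLR1 arrays and at 10.86 to 11.24 on the control arrays.

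Isoproterenol moved few members in cells with the control shRNA. Of 40 genes 3 rose and 4 fell (17.5% called), where 18.6% of all genes tested were called, 7.7% higher and 10.9% lower, so the share was close to the background. Cenpu rose by 1.15 ± 0.08 (adjusted p = 2.61e-08), a 2.22-fold difference seen on all 3 arrays. Rrm2 rose by 0.19 ± 0.05 (adjusted p = 0.00936) and Chaf1b by 0.17 ± 0.05 (adjusted p = 0.0286). Centring on the hybridisation controls ended both calls (Rrm2 0.14, adjusted p = 0.152, and Chaf1b 0.12, adjusted p = 0.235), and with Cdc6 and Ccne1 called lower the split became 1 higher and 6 lower. That of Chaf1b also ended without any of 5 of the 6 control arrays, all but replicate 2 without isoproterenol (adjusted p = 0.0577 to 0.147).

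Of the genes that fell with isoproterenol in control cells, Mcm7 read 8.99, 8.92 and 8.98 with isoproterenol, against 9.29, 9.30 and 9.33 without it. With TBLR1 shRNA Mcm7 read 9.17, 9.17 and 9.26 with isoproterenol, against 9.32, 9.33 and 9.30 without it. The treated arrays were lower with either shRNA, and the fall was called in control cells (-0.34 ± 0.04, adjusted p = 1e-05) and not in TBLR1 cells (-0.12 ± 0.04, adjusted p = 0.0798). Rfc3 read 7.97, 8.12 and 8.07 with control shRNA and isoproterenol, against 8.27, 8.33 and 8.29 with control shRNA alone. With TBLR1 shRNA Rfc3 read 8.45, 8.34 and 8.40 with isoproterenol, against 8.46, 8.45 and 8.45 without it. Rfc3 was lower on every treated control array (-0.24 ± 0.04, adjusted p = 0.00091), while the TBLR1 arrays overlapped (-0.05 ± 0.04, adjusted p = 0.565). Between the shRNAs Rfc3 rose by 0.34 ± 0.04 with isoproterenol (adjusted p = 7.97e-06) and 0.15 ± 0.04 without it (adjusted p = 0.011).

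Ccne2 read 7.91, 8.0 and 7.92 with control shRNA and isoproterenol, against 8.43, 8.41 and 8.30 with control shRNA alone. With TBLR1 shRNA Ccne2 read 8.31, 7.94 and 7.98 with isoproterenol, against 8.20, 8.11 and 8.38 without it. The control groups did not overlap (-0.43 ± 0.08, adjusted p = 0.00134). The TBLR1 groups overlapped through replicate 1 with isoproterenol, at -0.15 ± 0.08 (adjusted p = 0.301), and without that array Ccne2 was called lower (-0.27, adjusted p = 0.0213). Cdk1 also fell in control cells (-0.20 ± 0.04, adjusted p = 0.00198) and was 0.03 ± 0.04 in TBLR1 cells (adjusted p = 0.775). Among the 33 members not called in control cells, with differences from -0.17 to 0.12, single arrays made a call for 4: Ccne1 and Mcm4 fell without control replicate 3 of the untreated arrays (adjusted p = 0.0327 and 0.0153), Pola1 rose without control replicate 2 of the same group (0.0296), and Cdc6 fell without its control replicate 1 (0.0294) or without replicate 3 of the treated control arrays (0.0412). Array weights also made calls for Ccne1 (-0.16, adjusted p = 0.0454) and Tyms (0.13, adjusted p = 0.05).

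In cells with the TBLR1 shRNA isoproterenol moved only Rrm2 among the 40 genes (2.5%, where 8.86% of all genes tested were called, 4.09% higher and 4.78% lower). Rrm2 rose by 0.20 ± 0.05 (adjusted p = 0.0124), and its treated arrays were above its untreated arrays with either shRNA. This call ended without TBLR1 replicate 3 of the untreated arrays (0.17, adjusted p = 0.0755) or TBLR1 replicate 1 of the treated ones (0.16, adjusted p = 0.0548). It also ended after centring on the hybridisation controls (0.19, adjusted p = 0.0631). The other 39 differed by -0.15 to 0.14.

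**Figure D5:**
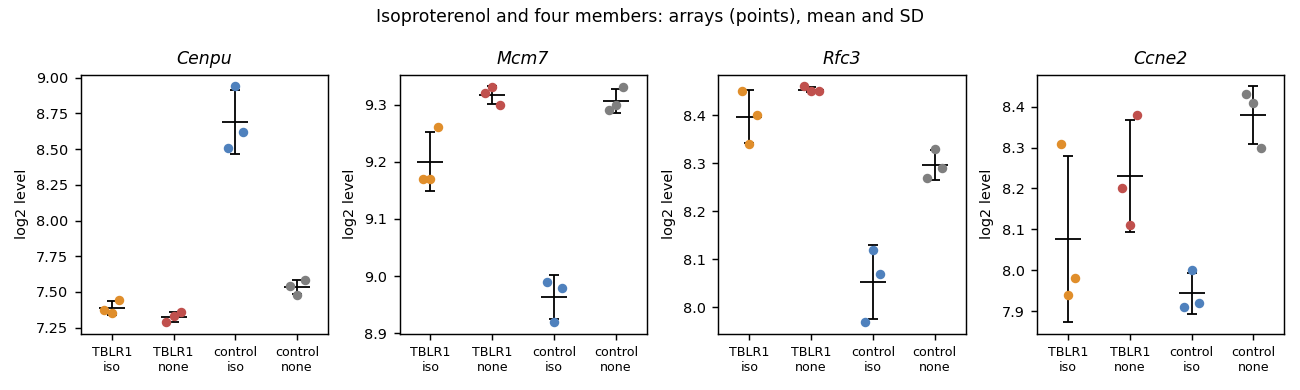
Log2 level of Cenpu, Mcm7, Rfc3 and Ccne2 on the 12 arrays, with the mean and SD of each group of 3; iso stands for isoproterenol and none for no treatment, and each panel has its own scale. Cenpu lies at 8.51 to 8.94 on the control arrays with isoproterenol and at 7.29 to 7.58 on the other 9, and Mcm7, Rfc3 and Ccne2 are lower with isoproterenol on the control arrays.

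The difference between the effects of TBLR1 shRNA with and without isoproterenol was called for 3 of the 40 genes (7.5%), where 2.4% of all genes tested were called, 1.07% higher and 1.33% lower. For Cenpu it was -1.10 ± 0.11 (adjusted p = 4.15e-05), and the rise with isoproterenol in control cells had no counterpart in TBLR1 cells (0.06 ± 0.08, adjusted p = 0.743). This difference was called under all alternatives and with any 1 array left out. The annotated span of Cenpu overlaps that of Primpol, a primase and polymerase gene, and which of these transcripts the Cenpu probe set reads was not tested. The probe set of Primpol differed by -0.29 ± 0.06 with isoproterenol in control cells (adjusted p = 0.00175) and gave a difference between effects of 0.10 ± 0.08 (adjusted p = 0.664). For Mcm7 the difference between effects was 0.23 ± 0.06 (adjusted p = 0.0403) and for Cdk1 0.23 ± 0.06 (adjusted p = 0.0495). Both ended when any of 11 arrays was left out, all but TBLR1 replicate 1 with isoproterenol for Mcm7 (adjusted p = 0.0546 to 0.118) and all but TBLR1 replicate 2 without isoproterenol for Cdk1 (adjusted p = 0.0572 to 0.122). Under hybridisation control centring the split was 0 higher and 1 lower, in place of 2 and 1, since Mcm7 (0.27, adjusted p = 0.157) and Cdk1 (0.27, adjusted p = 0.133) were no longer called. The other 37 genes had differences between effects from -0.18 to 0.28, the last that of Ccne2 (0.28 ± 0.12, adjusted p = 0.298).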

How the data were processed

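Gene expression of 12 samples of 3T3-L1 adipocytes was measured on Affymetrix arrays, hybridised with biotin-labelled cRNA, per the labels' protocols. Log2 levels per probe set were deposited, a scale read from their range of 5.39 to 14.58. The arrays had been quantile normalised when deposited, since the sorted values of any 2 arrays differ by at most 0.00781 and each has a median of 7.14. Whether and how the authors corrected background or summarised probes is not given in the sources used here. Such scaling removes a shift shared by most genes, so each difference is relative to the bulk of genes.

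Of 16553 probe sets 61 were controls, 15270 had 1 gene symbol in the platform annotation, which can be old, and 1222 had none and were left out. For 3 genes with 2 probe sets the brighter was used. limma 3.58.1 (R 4.3.3, lmFit and eBayes) estimated 4 group means from the 12 arrays jointly, leaving 8 residual degrees of freedom, with 5 two-sided contrasts, and p-values were adjusted over 15267 genes. Arrays give no counts, so precision rests on 3 arrays per group. On simulated data of 15267 genes, 89% of genes changed by 1.25-fold were called for TBLR1 shRNA without isoproterenol, 88% with it, 87% for isoproterenol with control shRNA, 90% for it with TBLR1 shRNA and 59% for the difference of effects. There 100 genes were raised by 1.25-fold and 100 by 1.5-fold, with spread drawn separately for each gene. In the data 41.7% of genes were called between the shRNAs with isoproterenol and 37.7% without it. The simulated shares thus do not give the sensitivity in these data.

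The members and lists were chosen with earlier results of these data known, so they give no independent support. Array values are given for the target, for the 2 members of each of 9 role groups with the smallest p for TBLR1 shRNA without isoproterenol, and for up to 4 called members per isoproterenol contrast and for the difference between effects. From each context list up to 3 called genes with the largest change are named, and others named were chosen after their values were seen. Alternatives were hybridisation control centring, cyclic loess, trend and robust eBayes, a fit of the compared arrays alone, array weights, a replicate block, a filter on the dimmest 33% of genes, the mean of probe sets, unnamed probe sets, Ccna2 placed with replication, and each array left out. Residuals of samples with the same replicate number correlated at -0.209 to 0.183 over 18 pairs, 2 of them over 0.1, so the numbers were not taken to pair samples. Motifs were searched in Python 3.11.15.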

Additional observations from a re-analysis of the deposited data

Results flagged for a closer look

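For 3 members the effect of TBLR1 shRNA differed between the treatments by its own test. Cenpu had a difference between effects of -1.10 ± 0.11 (adjusted p = 4.15e-05), from a TBLR1 effect of -1.30 with isoproterenol and -0.21 without it. Its response to isoproterenol was 0.06 with TBLR1 shRNA, against 1.15 with control shRNA. Mcm7 had a difference between effects of 0.23 ± 0.06 (adjusted p = 0.0403), from 0.24 with isoproterenol and 0.01 without it. Cdk1 had a difference of 0.23 ± 0.06 (adjusted p = 0.0495), from 0.48 with isoproterenol and 0.25 without it. The adjusted p of Mcm7 and Cdk1 was under 0.05 with all 12 arrays, and over 0.05 when any of 11 arrays was left out.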

How the results depend on the processing

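The counts of members called between the shRNAs stayed within 1.5 times of the reported ones under every alternative, with 26 to 30 of 40 with isoproterenol and 24 to 30 without it when single arrays were left out (replication 17 to 18 and 16 to 20, mitosis 9 to 13 and 8 to 10). Hybridisation control centring moved the median of all genes to 0.10 with isoproterenol and 0.06 without it, from -0.01 in both, and gave 32 members higher and 2 lower with isoproterenol (median 0.36) and 31 and 1 without it (median 0.29). For isoproterenol with control shRNA 6 to 8 members were called with single arrays left out (replication 4 to 6, mitosis 2 in each), and with TBLR1 shRNA 0 to 1 (replication 0 to 1, mitosis 0). The single call with TBLR1 shRNA, a replication gene, became 0 with hybridisation control centring and 2 after cyclic loess, where Cdt1 was added. The 3 calls for the difference between effects became 1 with hybridisation control centring and 1 with the replicate block, where the replication call was 0 and the mitosis calls 1 with either. The 2 mitosis calls became 1 with array weights and 1 with unnamed probe sets included. Single arrays left out gave 1 to 2 calls (replication 0 to 1, mitosis 1 to 2). The cause was not tested. Residuals gave no sign that replicate numbers pair samples, and the replicate block gave 28 members called with isoproterenol and 29 without it, ended the call of Cdc20 with isoproterenol (adjusted p = 0.0647) and made a call for Ccne1 with isoproterenol in control cells (-0.14, adjusted p = 0.0273). Over the 40 members and 5 contrasts (200 results), 4045 of 4150 alternative values stayed called in the same direction or stayed not called, 78 lost the call, 27 gained one and 0 reversed a called direction. With 3 arrays per group the smallest changes stayed near the threshold.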
